A study of Ovis aries with 22 samples.

Results

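SKI and 7 related genes were followed in sheep (Ovis aries) arterial sinus tissue in a study of the Ross procedure, the operation that moves the pulmonary root into the aortic position, where it is called the pulmonary autograft. The genes are SKI, SKIL, SMAD6, SMAD7, SMURF1, SMURF2, PMEPA1 and TGFBI, 8 of the 26200 gene symbols in the deposited count tables. SKI was selected on its measured counts, which were clearly lower in the autograft, and because its loss of function causes an aortopathy syndrome, and the others were chosen as repressors or direct targets of TGF-beta signalling. The comparisons of the autograft with native sinus are therefore given for these 8 genes as a description, without p-values.

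RNA sequencing covered autograft sinus from 3 operated sheep, taken 6 months after surgery, and native aortic and pulmonary sinus from 4 further sheep (D3 to D6), each of which gave both tissues. These 4 animals were not operated according to the design text, but the labels give aortic sinus replicate 1 (animal D3) the treatment "Ross surgery". It was kept with the aortic libraries, and the fits were repeated without it. No strain, sex or age of the sheep was given in these labels. The operated animals contributed neither native sinus, so the autograft is compared with tissue of other animals, and surgery, position and the 6 months after it cannot be told apart.

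TGF-beta binds receptor kinases at the cell surface, which phosphorylate SMAD proteins that enter the nucleus with SMAD4 and switch target genes on. Several of the induced genes act back on the pathway. SKI and SKIL (also called SnoN) hold SMAD complexes in a repressed state with corepressors, SMAD6 and SMAD7 compete with the signalling SMADs at the receptors, SMURF1 and SMURF2 are ubiquitin ligases that mark receptors and SMADs for degradation, and PMEPA1 is a membrane protein that sequesters signalling SMADs. TGFBI encodes a secreted matrix protein that TGF-beta induces. In humans, mutations of SKI cause Shprintzen-Goldberg syndrome, in which the aortic root can dilate, and TGF-beta signalling controls matrix production by smooth muscle cells and fibroblasts of the arterial wall.

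Each library held between 17380599 and 20741334 counts, and counts were found for 17006 to 17940 genes. Pulmonary replicate 1 scored 9.34 on the first principal component (37.9% of variance), away from the other pulmonary libraries (-67.6 to -29.5) and next to aortic sinus (-30.6 to 8.46), while the autograft scored 37.2 to 72.8. Autograft replicate 1 was extreme on the second component (13.7% of variance), at 64.1. All 8 genes passed the filter on low counts that left 14979 genes, and the lowest count of any of them in a library was 122, for SMAD7. Levels are given as CPM (counts scaled to a common library total) with TMM scaling between libraries, and differences as edgeR log2 fold changes with their standard error (SE). Both autograft comparisons use the same 3 autograft libraries, so they are not independent of each other.

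SKI was the gene with the clearest separation. In the autograft it stood at 91.8, 91.1 and 78.5 CPM in replicates 1 to 3. In aortic sinus it stood at 169, 188, 180 and 185 CPM in replicates 1 to 4, and in pulmonary sinus at 201, 179, 186 and 169 CPM. The highest autograft library was well under the lowest native library, and the 8 native libraries lay close together, the highest 1.19 times the lowest. Means were 87.1 ± 7.50 CPM in the autograft (SD, n = 3), 180 ± 8.18 CPM in aortic sinus and 184 ± 13.1 CPM in pulmonary sinus (SD, n = 4 each). The log2 fold change was -1.08 ± 0.10 (SE) against pulmonary sinus and -1.05 ± 0.10 against aortic sinus, so the SKI level was 2.11-fold and 2.07-fold lower in the autograft. Of the 14979 genes tested, 585 had a more negative log2 fold change than SKI against pulmonary sinus (3.91%) and 539 against aortic sinus (3.60%). With any single library left out, the difference stayed between -1.13 and -1.01 against pulmonary sinus and between -1.08 and -0.98 against aortic sinus.

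SKIL, the closest relative of SKI, did not share that pattern. It was measured at 152, 99.3 and 103 CPM in the autograft, at 87.0, 119, 84.9 and 103 CPM in aortic sinus and at 147, 60.9, 73.5 and 98.7 CPM in pulmonary sinus. The groups overlapped, with autograft replicate 1 and pulmonary replicate 1 both far above the rest of their groups. The log2 fold change was 0.32 ± 0.27 (SE) in the autograft against pulmonary sinus and 0.26 ± 0.27 against aortic sinus. Without autograft replicate 1 these became 0.09 and 0.05, and without pulmonary replicate 1 the difference from pulmonary sinus was 0.58.

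The ratio of SKI to SKIL counts within a library needs no scaling between libraries. It was 0.603, 0.918 and 0.761 in the autograft, 1.94, 1.58, 2.12 and 1.79 in aortic sinus and 1.37, 2.95, 2.53 and 1.72 in pulmonary sinus. SKI was thus the less abundant of the pair in counts in each of the 3 autograft libraries and the more abundant in each of the 8 native ones. Part of this separation follows from the choice of SKI, and counts are not corrected for the lengths of the transcripts.

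**Figure D1:**
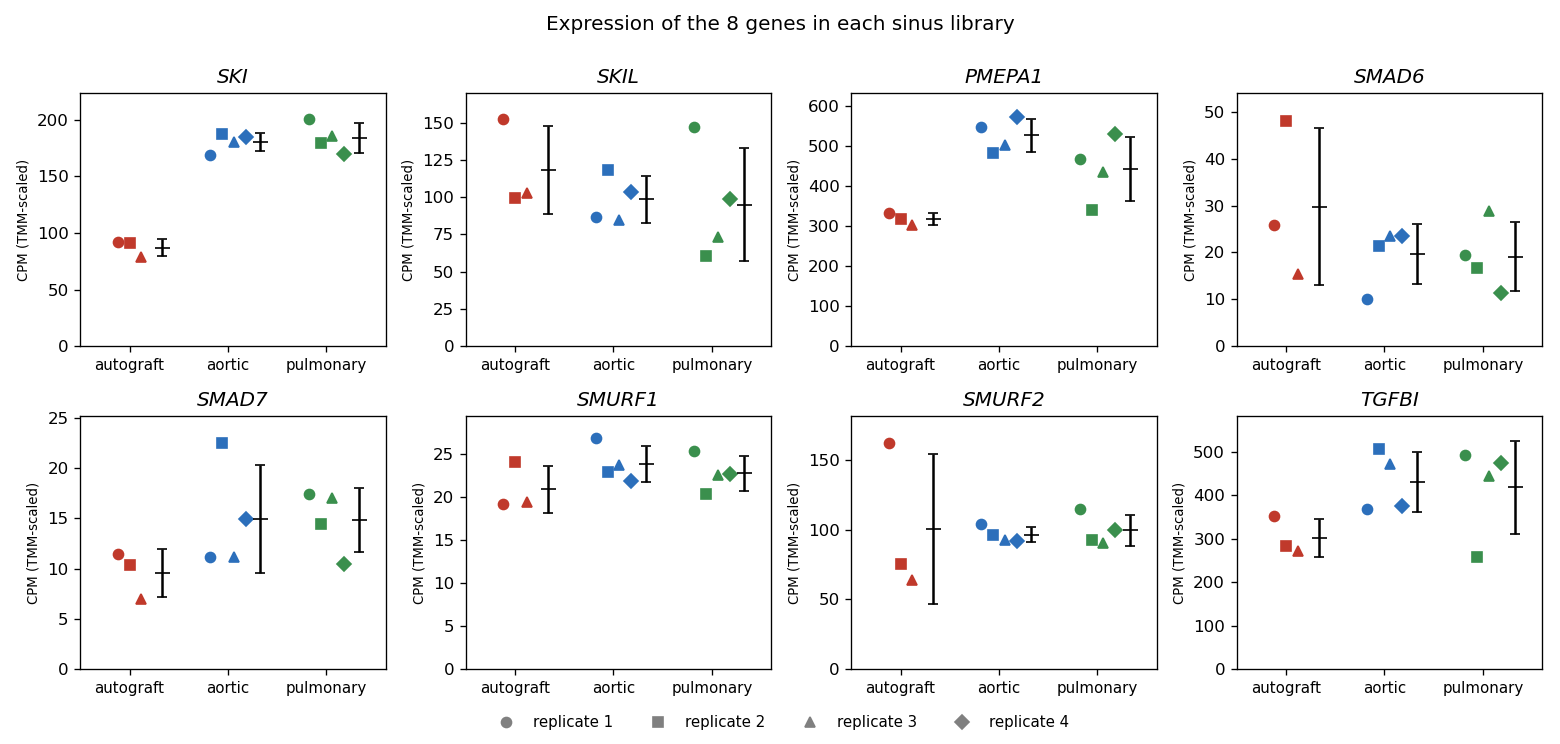
Level of each of the 8 genes in CPM with TMM scaling (y axis, from 0) in every library of autograft, aortic and pulmonary sinus (x axis). Markers show the replicate number, and bars show the mean and SD of the group. The autograft libraries of SKI (78.5 to 91.8 CPM) and PMEPA1 (304 to 333 CPM) sit below every native library. SKIL, SMAD6, SMAD7, SMURF1 and SMURF2 overlap between groups, and the autograft libraries of TGFBI overlap with pulmonary but not aortic sinus.

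The inhibitory SMADs had the lowest counts of the 8 together with SMURF1, and they differed in direction. SMAD7, which the classical TGF-beta SMADs induce and which blocks their receptor, was measured at 11.5, 10.4 and 6.93 CPM in the autograft, at 11.1, 22.6, 11.1 and 14.9 CPM in aortic sinus and at 17.4, 14.4, 17.0 and 10.5 CPM in pulmonary sinus. The 3 autograft libraries lay at the low end, but autograft replicate 1 was above the lowest library of each native group. The log2 fold change was -0.63 ± 0.29 (SE) against pulmonary sinus and -0.64 ± 0.29 against aortic sinus, where it was -0.36 without aortic replicate 2, the highest library.

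SMAD6, which acts mainly on BMP signalling, spread more widely than any of the other 7 genes over the native libraries, the highest of which was 2.86 times the lowest. It was measured at 25.8, 48.0 and 15.3 CPM in the autograft, at 10.1, 21.4, 23.4 and 23.6 CPM in aortic sinus and at 19.4, 16.7, 28.9 and 11.4 CPM in pulmonary sinus. The groups overlapped, and autograft replicate 2 held the highest value of all 11 libraries. The log2 fold change of 0.64 ± 0.41 (SE) against pulmonary sinus and 0.60 ± 0.41 against aortic sinus depended on that library, since without it the values were 0.10 and 0.08.

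The ratio of SMAD7 to SMAD6 counts was 0.444, 0.216 and 0.452 in the autograft, 1.10, 1.05, 0.476 and 0.633 in aortic sinus and 0.895, 0.864, 0.589 and 0.915 in pulmonary sinus. The autograft libraries were the lowest 3 of the 11, although autograft replicate 3 at 0.452 was close to aortic replicate 3 at 0.476. The counts behind this ratio are small, and for SMAD7 the share of counts in run 2 against run 1 of the same library varied from -0.58 to 0.32 on the log2 scale, wider than the -0.16 to 0.09 seen for SKI.

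The 2 SMURF ubiquitin ligases showed no common shift. SMURF1 was measured at 19.2, 24.0 and 19.4 CPM in the autograft, at 26.8, 23.0, 23.8 and 21.9 CPM in aortic sinus and at 25.4, 20.4, 22.5 and 22.8 CPM in pulmonary sinus. Its groups overlapped through autograft replicate 2, and its log2 fold change was -0.12 ± 0.13 (SE) against pulmonary sinus and -0.19 ± 0.13 against aortic sinus.

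SMURF2, which is itself induced by TGF-beta, was measured at 163, 75.3 and 64.0 CPM in the autograft, at 104, 96.5, 93.0 and 92.3 CPM in aortic sinus and at 115, 92.9, 90.5 and 99.8 CPM in pulmonary sinus. Autograft replicate 1 was the highest of the 11 libraries and autograft replicates 2 and 3 were the lowest. The mean log2 fold change, 0.02 ± 0.26 (SE) against pulmonary sinus and 0.06 ± 0.26 against aortic sinus, therefore describes no autograft library. Without autograft replicate 1 the values turned to -0.52 and -0.46. The same library set the ratio of SMURF2 to SMURF1 counts, which was 8.46, 3.13 and 3.30 in the autograft, against 3.89, 4.21, 3.91 and 4.22 in aortic sinus and 4.55, 4.56, 4.01 and 4.39 in pulmonary sinus.

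PMEPA1 and TGFBI, both strongly induced by TGF-beta in many cell types, were the most abundant of the 8 in counts, and both averaged lower in the autograft. PMEPA1 was measured at 333, 319 and 304 CPM in the autograft, at 549, 484, 503 and 572 CPM in aortic sinus and at 470, 340, 436 and 532 CPM in pulmonary sinus. The autograft libraries lay close together and below each native library, though pulmonary replicate 2 was only just above autograft replicate 1. The log2 fold change was -0.73 ± 0.15 (SE) against aortic sinus and -0.48 ± 0.14 against pulmonary sinus.

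TGFBI was measured at 352, 283 and 272 CPM in the autograft, at 370, 506, 473 and 376 CPM in aortic sinus and at 494, 259, 445 and 476 CPM in pulmonary sinus. It did not overlap between the autograft and aortic sinus, while pulmonary replicate 2 was below all 3 autograft libraries. The log2 fold change was -0.47 ± 0.22 (SE) against pulmonary sinus and -0.51 ± 0.22 against aortic sinus, and the difference from pulmonary sinus was -0.64 without pulmonary replicate 2. The ratio of PMEPA1 to TGFBI counts overlapped between the groups, at 0.945, 1.13 and 1.12 in the autograft, 1.48, 0.957, 1.06 and 1.52 in aortic sinus and 0.951, 1.31, 0.978 and 1.12 in pulmonary sinus.

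**Figure D2:**
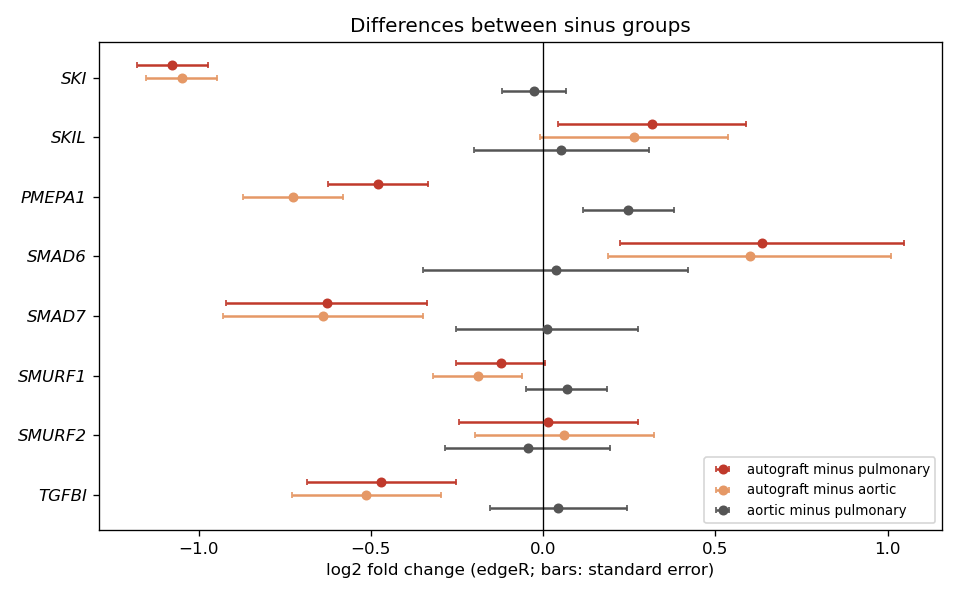
Log2 fold change of each of the 8 genes (x axis, edgeR) for autograft minus pulmonary, autograft minus aortic and aortic minus pulmonary sinus. Points are estimates and bars are 1 SE. SKI lies near -1.08 and -1.05 in the autograft comparisons, and all 8 genes lie within 0.25 of 0 between the native sinuses.

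Across all genes, 11.3% were called at an adjusted p under 0.05 in autograft against pulmonary sinus (edgeR quasi-likelihood test, Benjamini-Hochberg over 14979 genes). By direction, 6.05% were higher and 5.29% lower in the autograft, and of the 8 genes 1, SKI, was called lower. Against aortic sinus 2.38% of all genes passed, 0.948% upward and 1.43% downward, and 2 of the 8, SKI and PMEPA1, were called lower. Autograft and pulmonary values were fully separated for 22.1% of all genes and for 2 of the 8, SKI and PMEPA1. Autograft and aortic values were fully separated for 20.6% of all genes and for 3 of the 8, SKI, PMEPA1 and TGFBI. All 3 autograft libraries lay below all 8 native libraries for 7.18% of genes, SKI and PMEPA1 included. As the genes were chosen with these comparisons known, nothing is read from their counts. The call of PMEPA1 against aortic sinus ended when any autograft library, any aortic library or pulmonary replicate 3 was left out, which left 1 called gene of the 8.

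No library was the highest or the lowest of its group for all 8 genes, but some were for most of them. Within the autograft, replicate 1 was highest for 6 of the 8 genes (SMAD6 and SMURF1 were the exceptions) and replicate 3 was lowest for 6 (SKIL and SMURF1 were the exceptions). Within pulmonary sinus, replicate 1 was highest for 6 genes and replicate 2 lowest for 4. Within aortic sinus, replicate 1 was lowest for SKI, SMAD6, SMAD7 and TGFBI, and replicate 2 was highest for SKI, SKIL, SMAD7 and TGFBI. Over the 8 native libraries the highest was 1.19 times the lowest for SKI, 1.28 times for SMURF2, 1.32 times for SMURF1, 1.68 times for PMEPA1, 1.95 times for TGFBI, 2.16 times for SMAD7 and 2.41 times for SKIL. SKI was thus the least variable of the 8 in native sinus.

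**Figure D3:**
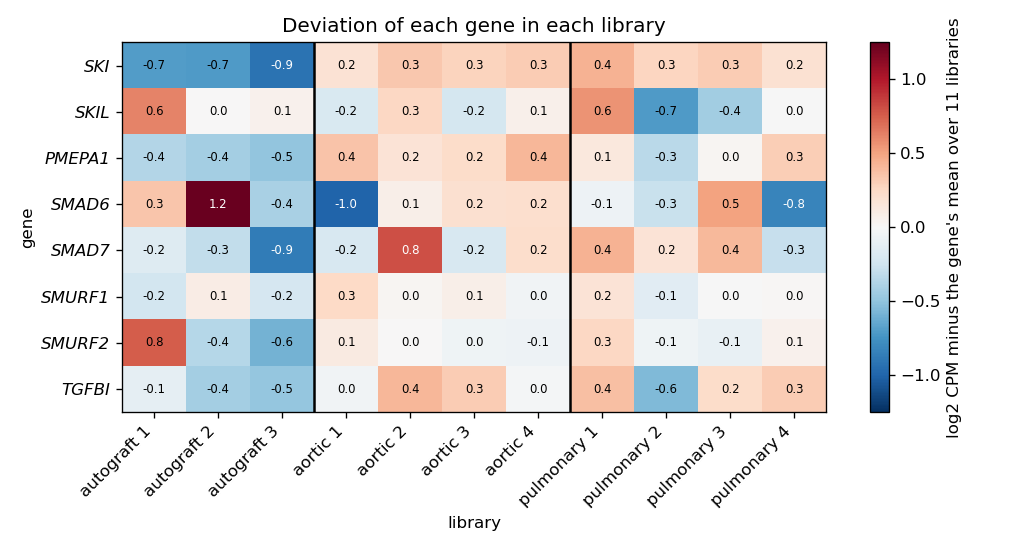
Deviation of each of the 8 genes in each of the 11 libraries from that gene's mean over the libraries, in log2 CPM (colour and printed value). SKI is negative in all 3 autograft libraries and positive in all 8 native ones, PMEPA1 is negative in the autograft and in pulmonary replicate 2, and SMURF2 is high in autograft replicate 1 and low in replicates 2 and 3.

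Native aortic and pulmonary sinus were compared to see how the feedback genes are set in the 2 arteries before any transplantation. The choice of the genes did not use the difference between the native sinuses, so its test is given. None of the 8 genes differed past the threshold, with adjusted p = 1 for each in edgeR. Aortic minus pulmonary log2 fold changes were -0.03 ± 0.09 (SE) for SKI, 0.05 ± 0.25 for SKIL, 0.04 ± 0.38 for SMAD6, 0.01 ± 0.26 for SMAD7, 0.07 ± 0.12 for SMURF1, -0.05 ± 0.24 for SMURF2, 0.25 ± 0.13 for PMEPA1 and 0.04 ± 0.20 for TGFBI. Intervals show what the test leaves possible. They and the SE come from the fit with no animal block, which did not use the pairing of the native libraries. The 95% interval was narrow for SKI, from -0.23 to 0.18, and for SMURF1, from -0.19 to 0.33, and it was wide for SMAD6, from -0.81 to 0.88, and for SMAD7, from -0.57 to 0.59.

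Since each animal gave both native sinuses, the difference can also be read within an animal. PMEPA1 was higher in aortic sinus in 4 of 4 animals, by 0.11 to 0.51 on the log2 scale, the most even direction of the 8, and its interval over all libraries still included 0 (-0.04 to 0.54). SMURF1 and SKIL were higher in aortic sinus in 3 of 4 animals, with ranges of -0.06 to 0.17 and -0.75 to 0.96. SKI, SMAD6, SMAD7, SMURF2 and TGFBI were higher in 2 of 4 animals. These counts rest on the animal names in the labels. The deviations of the aortic and pulmonary libraries from their group means correlated at 0.43 within D5 and 0.45 within D6, but at -0.18 within D3 and -0.13 within D4. Aortic D4 correlated with pulmonary D3 at 0.40 and aortic D3 with pulmonary D4 at 0.26, and whether libraries of D3 and D4 were exchanged was not tested. The range given for SKIL is set by D3 and D4, and the upper ends given for PMEPA1 and SMURF1 are set by D4. Aortic and pulmonary values were fully separated for 1.42% of all genes and for none of the 8. In the whole table, edgeR called 0% of the 14979 genes between the native sinuses, with 306 at an unadjusted p under 0.05. DESeq2 called 0 as well, with 391 at an unadjusted p under 0.05. The edgeR number at an unadjusted p under 0.05 was 1241 without pulmonary replicate 1 and 157 without pulmonary replicate 2.

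**Figure D4:**
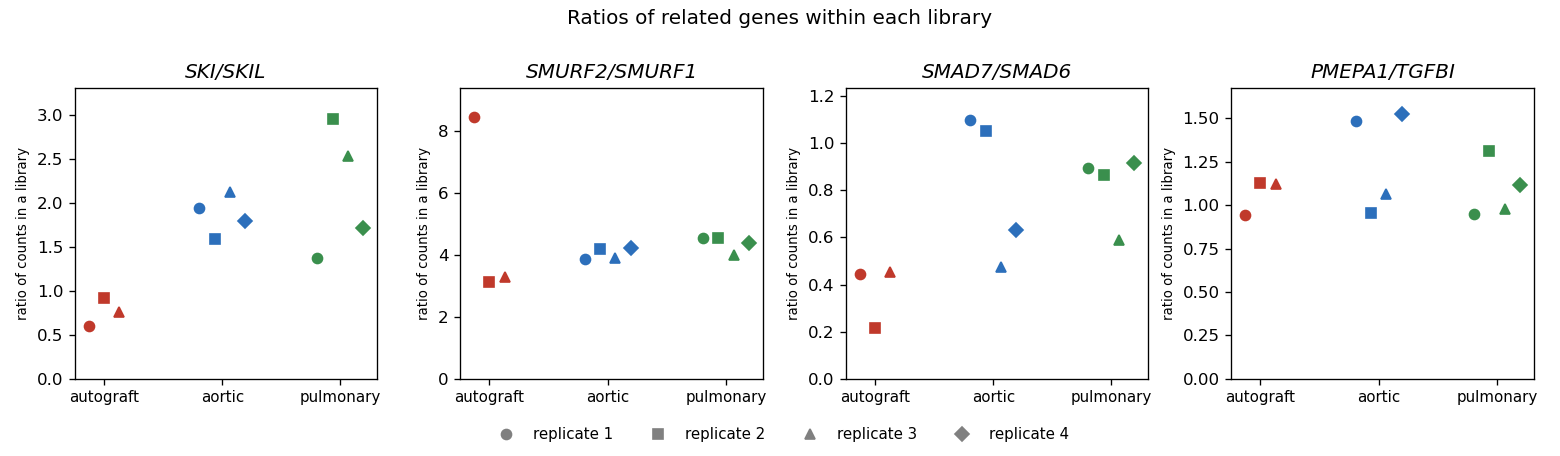
Ratio of counts of related genes within each library (y axis, from 0) for SKI to SKIL, SMURF2 to SMURF1, SMAD7 to SMAD6 and PMEPA1 to TGFBI, by group (x axis), with markers for the replicate number. The SKI to SKIL ratio is 0.603 to 0.918 in the autograft, against 1.37 to 2.95 over the native libraries, and the SMURF2 to SMURF1 ratio of 8.46 in autograft replicate 1 stands above the other libraries.

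Levels of different genes can be set side by side on the authors' FPKM, which is per transcript length. TGFBI was the highest of the 8 in each group, at 128 ± 32.6 FPKM in the autograft (SD, n = 3), 171 ± 24.7 FPKM in aortic sinus and 173 ± 46.7 FPKM in pulmonary sinus (SD, n = 4 each). PMEPA1 came next, at 53.1 ± 3.66 FPKM in the autograft, 96.9 ± 5.50 FPKM in aortic sinus and 78.9 ± 15.6 FPKM in pulmonary sinus. SKI followed, at 27.9 ± 4.70 FPKM in the autograft, 55.8 ± 4.24 FPKM in aortic sinus and 57.7 ± 3.99 FPKM in pulmonary sinus. The libraries of PMEPA1 and SKI overlapped in pulmonary sinus, where PMEPA1 was as low as 55.7 FPKM and SKI as high as 62.8 FPKM, and not in the autograft or aortic sinus. SKI and the next gene, SMURF2, did not overlap in either native sinus, but they did in the autograft, where SMURF2 reached 25.8 FPKM in its highest library and SKI 24.1 FPKM in its lowest.

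Lower in the order, SMURF2 averaged 16.6 FPKM in the autograft, 18.1 FPKM in aortic sinus and 18.4 FPKM in pulmonary sinus. SKIL averaged 14.0 FPKM in the autograft, 12.4 FPKM in aortic sinus and 11.4 FPKM in pulmonary sinus, while SMAD7 averaged 10.9 FPKM in the autograft, 15.6 FPKM in aortic sinus and 16.9 FPKM in pulmonary sinus. The ranges of SMURF2 and the gene after it, and of SKIL and SMAD7, overlapped in each group. SMAD6 and SMURF1 were lowest in each group, between 3.28 and 5.19 FPKM on average. The FPKM of SMAD7 rests on few counts, 16.8 per FPKM against 45.1 to 150 for the other 7 genes, so its place depends on the transcript length the authors used.

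Markers of cell types also differed between libraries. Only the fibroblast sum and the T and natural killer cell sum separated the autograft from every native library, and the other sums overlapped. Summed over the 9 of 10 smooth muscle markers in the tables, autograft libraries held 26359, 53708 and 52197 CPM in replicates 1 to 3, against 51943 to 75025 CPM in aortic sinus and 55480 to 92817 CPM in pulmonary sinus. The labelled arterial wall tissue thus carried its defining smooth muscle markers, and none of the 9 was at 0 in a library. The 10 fibroblast markers summed to 10260 to 13740 CPM in the autograft, 5458 to 7158 CPM in aortic sinus and 2733 to 8846 CPM in pulmonary sinus. The 10 T and natural killer cell markers summed to 43.4 to 57.1 CPM in the autograft, 7.05 to 12.0 CPM in aortic sinus and 2.85 to 8.81 CPM in pulmonary sinus, where CD3G was at 0 in 2 libraries and CD3D in 1. The 9 macrophage markers summed to 1312, 926 and 191 CPM in autograft replicates 1 to 3, against 147 to 450 CPM in aortic sinus and 69.4 to 338 CPM in pulmonary sinus. The 9 endothelial markers summed to 194, 1709 and 1003 CPM in autograft replicates 1 to 3, against 270 to 636 CPM in aortic sinus and 130 to 456 CPM in pulmonary sinus. For each of these cell types 2 autograft libraries were above every native library and 1 was not. The 8 adipocyte markers summed to 47.2 to 906 CPM in the autograft, 99.9 to 502 CPM in aortic sinus and 95.5 to 280 CPM in pulmonary sinus. The 9 heart muscle markers summed to 57.4 to 221 CPM in the autograft, 167 to 411 CPM in aortic sinus and 142 to 412 CPM in pulmonary sinus.

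SKI per 1000 CPM of the smooth muscle markers was 3.48, 1.70 and 1.504 CPM in the autograft, 2.39, 3.42, 2.40 and 3.56 CPM in aortic sinus and 3.62, 1.93, 2.51 and 2.95 CPM in pulmonary sinus. On that scale autograft replicate 1 was within the native range and replicates 2 and 3 were below it. In bulk tissue, fewer cells of a type and less RNA per cell cannot be told apart, and the part of these marker differences in the results was not tested.

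The rest of the TGF-beta and BMP pathway was described over 7 lists of other genes, whose members were tested with edgeR over all genes. These lists were also chosen with earlier results of these data known, so their shares called are a description and nothing is read from them. The adjusted p of single list genes are a description for the same reason. Against pulmonary sinus, the share called over all genes, 11.3% (6.05% higher and 5.29% lower), is the background for each list. Of the 22 ligands and receptors 27.3% passed (5 higher in the autograft and 1 lower), with a median log2 fold change of 0.40, where the median of all genes was 0.00. BMPR1B and BMP6 rose most, BMP6, a BMP ligand, to 12.2 ± 5.12 CPM in the autograft (SD, n = 3), against 3.61 ± 0.494 CPM in pulmonary sinus (SD, n = 4). Its log2 fold change was 1.75 ± 0.35 (SE, edgeR adjusted p = 0.0151). BMPR1B, a type I BMP receptor, was measured at low levels, 1.36 ± 0.765 CPM in the autograft and 0.149 ± 0.0714 CPM in pulmonary sinus (adjusted p = 0.0192). TGFBR1, the type I TGF-beta receptor, had a log2 fold change of 0.73 ± 0.18 (SE, edgeR adjusted p = 0.0318). For BMP4 it was 1.29 ± 0.36 (edgeR adjusted p = 0.0429). ACVRL1, a type I receptor of endothelial cells, had 1.20 ± 0.32 (edgeR adjusted p = 0.0370). The endothelial marker sum was also high in 2 of the 3 autograft libraries, and its part in the ACVRL1 difference was not tested. BMPR1A fell, at 160 ± 23.4 CPM in the autograft and 237 ± 14.1 CPM in pulmonary sinus (adjusted p = 0.0168).

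Of the 6 signalling SMADs, 2 fell and none rose against pulmonary sinus, with a median log2 fold change of -0.17. SMAD4, the common partner that SKI binds, stood at 25.4 ± 4.11 CPM in the autograft, against 39.8 ± 1.70 CPM in pulmonary sinus, a log2 fold change of -0.65 ± 0.13 (edgeR adjusted p = 0.0156). SMAD1, which carries BMP signals, had a log2 fold change of -0.75 ± 0.20 (edgeR adjusted p = 0.0364). SMAD2 and SMAD3, which carry TGF-beta signals, did not pass the test, with log2 fold changes of -0.06 ± 0.13 and 0.03 ± 0.19.

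Of 19 nuclear corepressors and partners of SKI, 6 fell and 1 rose (36.8% called), with a median log2 fold change of -0.09. NCOR1, the corepressor that SKI recruits, stood at 70.8 ± 1.84 CPM in the autograft, against 93.6 ± 3.11 CPM in pulmonary sinus, a log2 fold change of -0.40 ± 0.08 (edgeR adjusted p = 0.0160). Other lower genes were CTBP2 at -0.47 ± 0.10, PRDM16, a SKI-binding zinc finger protein, at -0.83 ± 0.21, ZEB1 at -0.51 ± 0.13 and MECOM at -0.47 ± 0.12, with edgeR adjusted p between 0.0169 and 0.0368. The higher gene was TGIF1, a homeodomain repressor of SMAD targets, at 12.5 ± 0.813 CPM in the autograft and 5.67 ± 2.16 CPM in pulmonary sinus (edgeR adjusted p = 0.0388), which was named after its values were seen.

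Among 16 other ubiquitin and phosphatase regulators, 3 fell and 1 rose (25.0%), with a median of -0.11. WWP2, a ubiquitin ligase that acts on SMADs, stood at 108 ± 7.13 CPM in the autograft, against 197 ± 11.1 CPM in pulmonary sinus, a log2 fold change of -0.86 ± 0.16 (edgeR adjusted p = 0.0135). WWP1, its close relative, went the other way at 0.54 ± 0.15 (edgeR adjusted p = 0.0433). The deubiquitinase gene USP11 had -0.40 ± 0.11 and the ubiquitin ligase scaffold gene CUL1 -0.44 ± 0.12 (edgeR adjusted p = 0.0366 and 0.0434). RNF111, the ligase that degrades SKI and SKIL, did not pass the test, at 33.1 CPM in the autograft and 32.7 CPM in pulmonary sinus.

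Of 11 other inhibitors tested, 1 rose, and this share of 9.09% is near the 11.3% of all genes. It was CHRDL1, a secreted BMP antagonist, at 151 ± 42.4 CPM in the autograft and 37.3 ± 21.4 CPM in pulmonary sinus, a log2 fold change of 2.02 ± 0.45 (edgeR adjusted p = 0.0220). LDLRAD4, a membrane relative of PMEPA1, averaged 313 CPM in the autograft and 427 CPM in pulmonary sinus and did not pass the test (log2 fold change -0.45 ± 0.15, edgeR adjusted p = 0.0718).

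Of 28 other genes known to be induced by TGF-beta, 5 rose and 1 fell (21.4%), with a median log2 fold change of 0.59. The 5 were ADAM12, a metalloprotease, and the matrix genes COL1A1, COL1A2, COL3A1 and POSTN, which fibroblasts also express. The part of the higher fibroblast marker sum in these values was not tested. ADAM12 stood at 19.4 ± 9.98 CPM in the autograft, against 1.94 ± 1.24 CPM in pulmonary sinus, a log2 fold change of 3.32 ± 0.53 (edgeR adjusted p = 0.00914). COL1A1 stood at 4435 ± 679 CPM in the autograft, against 1660 ± 336 CPM in pulmonary sinus, a log2 fold change of 1.42 ± 0.21 (edgeR adjusted p = 0.00713). COL3A1 had 1.32 ± 0.30, POSTN 1.67 ± 0.42 and COL1A2 0.96 ± 0.24, with edgeR adjusted p between 0.0243 and 0.0323. KLF11, a TGF-beta-inducible repressor, fell at -0.70 ± 0.19 (edgeR adjusted p = 0.0401). Of 8 BMP-induced genes 1 was called, and this share of 12.5% is also near the 11.3% of all genes. It was BMPER, at 7.79 ± 5.87 CPM in the autograft and 0.838 ± 0.276 CPM in pulmonary sinus (edgeR adjusted p = 0.0137).

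**Figure D5:**
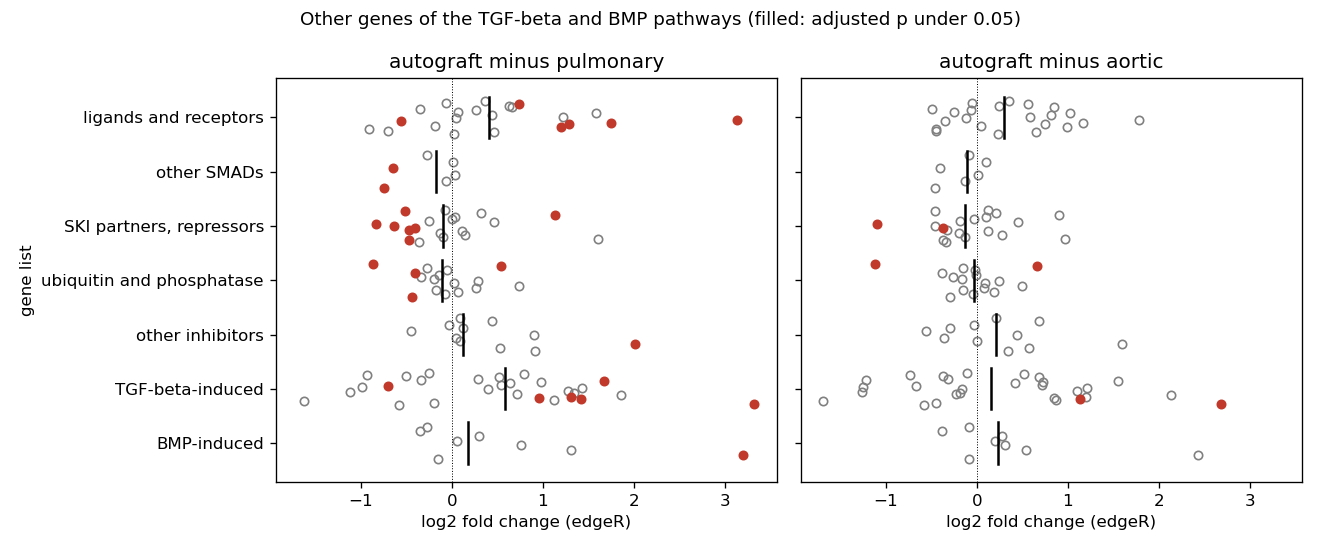
Log2 fold change (x axis, edgeR) of each gene of the 7 lists of other TGF-beta and BMP pathway genes (rows), for autograft minus pulmonary and autograft minus aortic sinus. Filled points passed an adjusted p of 0.05 over all genes, and black lines are list medians. The median of the TGF-beta-induced genes is 0.59 against pulmonary sinus and 0.16 against aortic sinus, and that of the SKI partners is -0.09 and -0.13.

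Against aortic sinus, where 2.38% of all genes passed, 6 genes of these lists were called. In the SKI partners list 2 of 19 fell, PRDM16 at 45.6 ± 4.98 CPM in the autograft and 97.7 ± 29.1 CPM in aortic sinus (edgeR adjusted p = 0.0316) and NCOR1 at 70.8 ± 1.84 CPM in the autograft and 91.8 ± 2.92 CPM in aortic sinus (edgeR adjusted p = 0.0402). In the ubiquitin list, WWP2 fell to 108 ± 7.13 CPM in the autograft, against 235 ± 50.0 CPM in aortic sinus (edgeR adjusted p = 0.0152), and WWP1 rose by 0.66 ± 0.15 (edgeR adjusted p = 0.0473). In the TGF-beta-induced list, COL1A1 rose by 1.13 ± 0.21 and ADAM12 by 2.69 ± 0.51 (edgeR adjusted p = 0.0281 and 0.0320). In edgeR 0 of 22 ligands and receptors, 0 of 6 SMADs, 0 of 11 other inhibitors and 0 of 8 BMP-induced genes were called. At an unadjusted p under 0.05 these counts were 8, 2, 2 and 2, and with DESeq2 7, 0, 2 and 1. Between aortic and pulmonary sinus no gene of the 7 lists was called by edgeR or DESeq2, and 1, in the TGF-beta-induced list, had an unadjusted p under 0.05 in edgeR.

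The pathway calls rest on few animals. Of 28 list genes named against pulmonary sinus, heritable aortopathy genes included and TGIF1 not, ADAM12, COL1A1, NCOR1 and WWP2 kept their call in each of the 11 fits that left out a library. Leaving out autograft replicate 2 ended 22 of the 28 calls, with adjusted p up to 0.133. Without pulmonary replicate 3, 18 were lost (up to 0.124), without pulmonary replicate 2, 17 (up to 0.112), and without autograft replicate 1, 15 (up to 0.136). Without pulmonary replicate 4, 9 were lost (up to 0.0829), and 8 each without autograft replicate 3, aortic replicate 3 and aortic replicate 4 (up to 0.0799). Without aortic replicate 1, 4 were lost, without aortic replicate 2, 3, and without pulmonary replicate 1, 1 (up to 0.0638). With the compared groups alone 19 of the 27 that could be fitted were lost (up to 0.117). With limma on log2(FPKM + 1) 13 were lost (up to 0.328), and on log2(FPKM + 0.1) 11 (up to 0.334). NCOR1 was among the genes lost in each of these last 3 fits. ADAM12, COL1A1 and WWP2 kept their call against pulmonary sinus in all 23 alternatives. The 6 genes named against aortic sinus were all lost without autograft replicate 2 (adjusted p up to 0.112). Of these, 5 were lost without autograft replicate 1 (up to 0.0992), aortic replicate 1 (0.0930), aortic replicate 3 (0.129) or aortic replicate 4 (0.0761). Over the 11 fits that left out a library, NCOR1 and WWP1 each lost the call in 10, PRDM16 and ADAM12 in 6, COL1A1 in 5 and WWP2 in 1.

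The genes whose pattern was most like that of SKI were ranked by the root mean square difference of log2 CPM, each gene centred on its own mean, over the 11 libraries and 10928 genes with a mean of at least 5 CPM. SYNE1, which encodes the nuclear envelope protein nesprin-1, was closest at 0.16, with 149 CPM in the autograft, 317 CPM in aortic sinus and 303 CPM in pulmonary sinus. It was followed by MORC4 at 0.17, LOC105606122 at 0.17, the kinase gene PRKCD at 0.17, DZIP1L at 0.18, PLA2G4B at 0.18, ADGRL2, an adhesion receptor gene, at 0.19 and PHLDB1 at 0.19. None of these 8 belongs to the lists above. For TGFBI the closest were CAMK1D at 0.15, the atypical cadherin gene FAT1 at 0.17, HIVEP2 at 0.17, ZNF34 at 0.18 and DENND2A at 0.18. The measure includes the difference between autograft and native libraries on which SKI was chosen, and all genes share the same libraries and depths.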

How the data were processed

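RNA was extracted with TRIzol and sequenced as TruSeq libraries, per the labels' protocols, from 3 autograft, 4 aortic and 4 pulmonary sinus samples. There are 22 sample entries, since run 1 and run 2 of the 11 libraries are listed apart. The deposited count tables, 1 per run, hold the authors' raw counts for 26200 gene symbols. The submitters' processing notes name, without role or order, featureCounts 1.5.3, STAR 2.5.2b, Bowtie2 2.3.3.1 and cutadapt. The strand setting, genome build and annotation were not given in the sources used here. Whether the counting kept reads of overlapping, antisense or near-identical genes apart is not known. The deposited FPKM tables hold the authors' values of 15272 genes (run 1) and 15080 genes (run 2), and the mean of the runs was used. Their values have the same distribution in every library, so they were made equal between libraries before deposit, and they served for the order of levels and as an alternative unit. At most 0.000522% of counts were in the row that names no gene, which was left out.

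The 2 runs were summed. Per gene, chi-square between runs of 1 library was 1.38 to 1.51, and between libraries of 1 group 30.1 to 105, so runs count as 1 sample. Replicates are separate animals per the labels. Gene names matched RefSeq (assembly ARS-UI_Ramb_v3.0) for 18717 symbols and for 8 of the 8 genes described, and only names and gene types were taken from it. Genes were filtered with filterByExpr (14979 left), scaled by TMM and fitted with edgeR's quasi-likelihood test over all 11 libraries with no block. Versions were edgeR 4.0.16, DESeq2 1.42.0 and limma 3.58.1 in R 4.3.3. A gene was called at a Benjamini-Hochberg adjusted p under 0.05 over all genes tested. The SE of a log2 fold change is its size divided by the square root of F. Log2 CPM of single libraries has a prior count of 2. The fit was tested on simulated data.

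The members and lists were chosen with earlier results of these data known. From each pathway list, up to 6 called genes with the smallest p were named per comparison, and the result of 1 of them is not reported here. Alternatives were other scaling (RLE), DESeq2, limma-voom, no low-count filter, the compared groups alone, each run alone, log2(FPKM + 1) and log2(FPKM + 0.1), leaving out each library or animal D3, and the animal as a replicate block (a random effect in limma-voom for the autograft comparisons, a fixed term in edgeR between the native sinuses).

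Aortic and pulmonary libraries of a number come from the same animal per the labels, so they are paired. The deviations of the libraries of an animal from their group means correlated at 0.45 in D6, 0.43 in D5, -0.13 in D4 and -0.18 in D3. Across animals, aortic D4 with pulmonary D3 gave 0.40, and aortic D3 with pulmonary D4 gave 0.26.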

Additional observations from a re-analysis of the deposited data

Results flagged for a closer look

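SMAD6 in aortic sinus had a library that stood apart. Replicate 1 was at 10.1 CPM, while replicates 2 to 4 lay between 21.4 and 23.6 CPM, so that the gap below them was 0.839 of the whole range of the group, above Dixon's 95% critical value for 4 libraries. This is the library of animal D3 whose label names Ross surgery. It was the only such case among the 16 groups of 4 libraries that were checked for the 8 genes, a number in which chance alone can give a case.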

How the results depend on the processing

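Over 23 alternatives SKI stayed between -1.13 and -1.01 on the log2 scale against pulmonary sinus and between -1.10 and -0.98 against aortic sinus. Between the native sinuses no gene was called in any alternative, the replicate block included. The number at an unadjusted p under 0.05 in edgeR was less stable. It was 306 in the main fit, 157 without pulmonary replicate 2 and 1241 without pulmonary replicate 1. Without animal D3 it was 1078, and with the replicate block 598. The block gave 1611 called genes against pulmonary and 361 against aortic sinus, and changed no call of the 8 genes. Genes called against pulmonary sinus numbered 1699, but 2997 with DESeq2 and 479 with the compared groups alone, and 452 to 2753 with a library left out. Against aortic sinus they numbered 356, but 1469 with DESeq2 and 110 without animal D3, and 25 to 576 with a library left out. Without both pulmonary replicate 1 and autograft replicate 1, an alternative chosen after seeing the data, they numbered 2218 and 400. The causes were not tested. Of the 8 genes, 1 was called against pulmonary sinus, but 2 (SKI and PMEPA1) with RLE, DESeq2, FPKM + 1 or FPKM + 0.1. It was 2 (SKI and SMURF2) without both those libraries, and 1 to 2 with a library left out. Against aortic sinus the 2 called became 1 without animal D3 or without both those libraries, and 1 to 2 with a library left out.

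Aortic minus pulmonary signs reversed near 0 for 6 of the 8 genes, none of them called. SMAD7 gave -0.0252 with limma-voom, -0.00010 with no filter, -0.14 with run 1 alone, -0.14 with FPKM + 1, -0.15 with FPKM + 0.1 and -0.0294 with the replicate block. SKI gave 0.0493 without animal D3 and 0.0018 without both libraries, where SMURF2 gave 0.0165. With a library left out the ranges were -0.28 to 0.13 for SMAD7, -0.0641 to 0.0030 for SKI and -0.11 to 0.33 for SKIL. They were -0.14 to 0.30 for SMAD6, -0.13 to 0.12 for TGFBI and -0.0939 to 0.0169 for SMURF2. SMURF2 against native sinus took both signs over the alternatives, from -0.52 to 0.25 against pulmonary sinus. Depth limits SMAD7 most, at 122 counts in its lowest library.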

Other observations

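Among 30 genes of heritable aortopathy, a list that overlaps the others, 2 rose and 3 fell against pulmonary sinus (16.7% called with edgeR, against 11.3% of all genes), with a median log2 fold change of 0.00. Nothing is read from this share either, as the list was chosen with earlier results of these data known. The adjusted p of the genes in it are likewise a description. The smooth muscle myosin gene MYH11 stood at 7415 ± 2640 CPM in the autograft (SD, n = 3), against 18298 ± 3854 CPM in pulmonary sinus (SD, n = 4). Its log2 fold change was -1.30 ± 0.28 (SE, edgeR adjusted p = 0.0197). The filamin A gene FLNA stood at 7695 ± 1915 CPM in the autograft, against 18840 ± 5727 CPM in pulmonary sinus, a log2 fold change of -1.29 ± 0.29 (edgeR adjusted p = 0.0221). The others were SMAD4, TGFBR1 and COL3A1, described above. MYH11 lost its call without autograft replicate 2, pulmonary replicate 2 or pulmonary replicate 3, and FLNA without any of these or autograft replicate 1 (adjusted p up to 0.0706). With the compared groups alone both calls ended (adjusted p = 0.0578 for MYH11 and 0.0609 for FLNA, edgeR). On the authors' FPKM, FLNA also lost its call, with a difference of -0.25 on the log2(FPKM + 1) scale (limma adjusted p = 0.328). Those values were made equal in distribution between libraries before deposit, and the part of this in the smaller difference was not tested. Against aortic sinus edgeR called 0 of the 30, with 9 at an unadjusted p under 0.05, and DESeq2 called 6. MYH11 is itself 1 of the smooth muscle markers summed above, and it is counted in that sum.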
